A study of Mus musculus with 12 samples.

Results

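The expression of 7 genes of the aryl hydrocarbon receptor pathway was followed through 4 kinds of mouse CD4+ T cell culture: the receptor Ahr, its dimer partner Arnt, its repressor Ahrr and the target genes Tiparp, Cyp1a1, Cyp1b1 and Nqo1. The set was selected on its place in the pathway with measured levels of these arrays in view, above all the difference of Ahr between Th9 and Th2 cultures. All probes carrying these gene names were read, and they account for 7 of 27597 genes and 11 of 41174 probes on it. Expression was measured on 12 one-colour Agilent arrays, 3 per group, of cells from the C57BL/6 strain. Naive CD4+CD62L+ T cells from spleen and lymph nodes were activated in all groups with plate-bound anti-CD3 and soluble anti-CD28, expanded on day 3 and harvested after 5 days. In Th2 cultures the additions were IL-4 (20 ng/ml) with anti-IFN-γ. Th9 cultures received the same with TGF-β at 2 ng/ml added, and were given IL-4 and TGF-β again on expansion. Treg cultures received TGF-β and anti-IL-4, with IL-2 on expansion. For stimulated Th9 cultures, anti-CD3 (1 µg/ml) was applied for 6 h at the end of the 5 days. Nothing in the labels tells separate cultures or mice from repeated arrays of a single one, so every p-value rests on a spread between arrays that may be only technical.

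AHR is a transcription factor of the bHLH-PAS family that waits in the cytoplasm, bound to HSP90 and p23. Ligands such as dioxin or tryptophan derivatives send it to the nucleus, where it pairs with ARNT and binds DNA at the dioxin response element. The receptor then raises enzymes that break down its ligands (CYP1A1, CYP1B1) together with AHRR and TIPARP, which restrain it, and in helper T cells it is best known from Th17 and regulatory cells.

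Short promoter windows of 4 targets are shown because these genes went different ways across the cultures below. Whether their sequence has a part in that was not tested. RefSeq promoters, from 250 bases before the start site to 50 after it, were matched for 6 of the 7 genes in GRCm38.p6. The capitals mark each match to GCGTG, the core of the dioxin response element, or to its reverse complement CACGC.
Ahrr, chr13:74292282-74292581, minus strand: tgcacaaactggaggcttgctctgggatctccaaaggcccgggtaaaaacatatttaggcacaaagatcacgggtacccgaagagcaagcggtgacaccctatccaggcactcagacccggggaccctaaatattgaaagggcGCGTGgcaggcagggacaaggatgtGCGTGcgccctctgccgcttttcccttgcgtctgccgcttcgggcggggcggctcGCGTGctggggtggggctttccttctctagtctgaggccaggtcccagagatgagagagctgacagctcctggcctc
Cyp1a1, chr9:57697363-57697662, plus strand: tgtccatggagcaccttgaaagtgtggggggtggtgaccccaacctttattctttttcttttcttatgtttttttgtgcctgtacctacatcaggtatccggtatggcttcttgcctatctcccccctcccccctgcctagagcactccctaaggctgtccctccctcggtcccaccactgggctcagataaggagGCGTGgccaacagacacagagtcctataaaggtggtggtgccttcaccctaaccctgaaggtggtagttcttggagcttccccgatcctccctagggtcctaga
Tiparp, chr3:65528197-65528496, plus strand: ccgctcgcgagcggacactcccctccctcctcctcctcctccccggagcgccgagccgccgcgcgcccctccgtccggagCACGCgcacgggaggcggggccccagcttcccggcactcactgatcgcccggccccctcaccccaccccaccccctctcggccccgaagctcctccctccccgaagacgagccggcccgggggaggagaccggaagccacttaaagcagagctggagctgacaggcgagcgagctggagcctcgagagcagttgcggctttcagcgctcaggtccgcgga
Nqo1, chr8:107403156-107403455, minus strand: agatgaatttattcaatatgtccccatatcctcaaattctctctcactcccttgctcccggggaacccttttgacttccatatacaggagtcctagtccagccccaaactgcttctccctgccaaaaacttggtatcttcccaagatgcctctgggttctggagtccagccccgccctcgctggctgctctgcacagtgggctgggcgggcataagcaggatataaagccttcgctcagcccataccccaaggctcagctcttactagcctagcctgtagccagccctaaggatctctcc
The Ahrr window held 3 matches, starting 107, 82 and 27 bases before the start site. Cyp1a1 had 1 match, 54 bases before the start. Tiparp had 1, 170 bases before the start and on the opposite strand. The windows of Arnt and Cyp1b1, not printed, held 1 match each, and that of Nqo1 held 0. Searched on both strands, GCGTG occurred in 32.4% of 32851 promoters of this length. The longer form TNGCGTG, whose matches all contain the core, occurred in 5.07% of them and among the members only in Ahrr, at 1 site. The antioxidant response element core TGACNNNGC occurred in 12.4% of the promoters, and the Arnt window held 2 matches while the other 5 windows held 0. A match is a run of letters in this window and no evidence of binding. Sequence outside the windows was not searched, so a window without a match does not show that the gene lacks such sites.

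Between 59.9% and 63.7% of probes per array were well above background by the scanner software's own call, and arrays of the same group correlated over genes at 0.988 to 0.995. The number of arrays limits the precision. A level is given below as the log2 signal relative to the 75th percentile of its array, so levels are compared between cultures for a given probe and not between genes. Il9, the cytokine that defines Th9 cells, was well above background on 3 of 3 Th9 arrays and on 0 of 3 Th2 and 0 of 3 Treg arrays. Foxp3, the regulatory T cell factor, was highest in Treg (0.57 ± 0.19, SD, n = 3), lower in Th9 (-1.98 ± 0.09, SD, n = 3) and not well above background on any Th2 array. The Treg arrays also carried more B cell signal: the summed level of 10 B cell markers, on a linear scale where 1 is the 75th percentile, was 78.4 to 111 in Treg against 3.55 to 6.06 in Th2, 6.35 to 8.80 in Th9 and 1.14 to 4.58 in stimulated Th9. All 10 of these markers were well above background on every Treg array, Cd79a and Ms4a1 included, but also on every Th9 array. In Th2, 8 to 9 of them were, and in stimulated Th9 6 to 8. Treg and Th9 thus differed in the summed level and not in detection. A list of 10 myeloid markers summed to 11.1 to 12.4 in Treg and to 2.09 to 4.08 in the other groups. A list of 10 T cell markers summed to 438 to 543 in Treg, 258 to 290 in Th2, 235 to 249 in Th9 and 277 to 328 in stimulated Th9. A list of 7 stromal and epithelial markers went the other way, with sums of 5.96 to 8.03 in Th2, 5.01 to 5.69 in Th9, 0.71 to 0.84 in stimulated Th9 and 0.23 to 0.30 in Treg. A list of 6 CD8 and NK cell markers summed to 23.2 to 30.5 in Th9, 2.91 to 16.9 in stimulated Th9, 15.0 to 19.5 in Th2 and 23.6 to 43.6 in Treg. After stimulation 4 of its 5 tested genes were called lower, where 30.5% of all genes were lower and 63.7% were called. The stimulated arrays spread widely for Cd8a, from -2.23 to 2.47. The part of these other cells in the comparisons below, those with Treg and with stimulation included, was not tested. In such bulk samples fewer cells of a type and less RNA per cell cannot be told apart.

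Ahr, on chr12:35497979-35534989 of GRCm38.p6, was highest in Th9 cells and lowest in Treg cells. The Th9 arrays read 2.17, 2.09 and 1.99, and the stimulated Th9 arrays 0.81, 0.48 and 0.23. Th2 arrays read -0.37, -0.74 and -1.54, and Treg arrays -1.77, -1.63 and -2.37. The order Th9, stimulated Th9, Th2, Treg held without overlap between neighbouring groups, and only the lowest Th2 array came near the Treg arrays. The probe is spotted 10 times on each array, and the SD of its spots within an array was 0.025 to 0.087, below the SD between the arrays of every group (0.09 to 0.60). Its first 30 of 60 bases, from the array design (minus strand, mm8 chr12:36083324-36083383), are shown because every Ahr value here rests on this 1 probe.
Ahr probe: cacttagagcaccactagactgagggatta
Expressed as differences with limma SE of 0.29, Ahr was 2.97 higher in Th9 than in Th2 (7.83-fold) and 4.01 higher in Th9 than in Treg (16.1-fold). It was 1.04 higher in Th2 than in Treg (2.05-fold) and, after stimulation of Th9 cells, 2.98-fold lower (difference -1.58). The gene was chosen with its Th9 to Th2 difference already known from these arrays, so all its values are a description without a test.

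**Figure D1:**
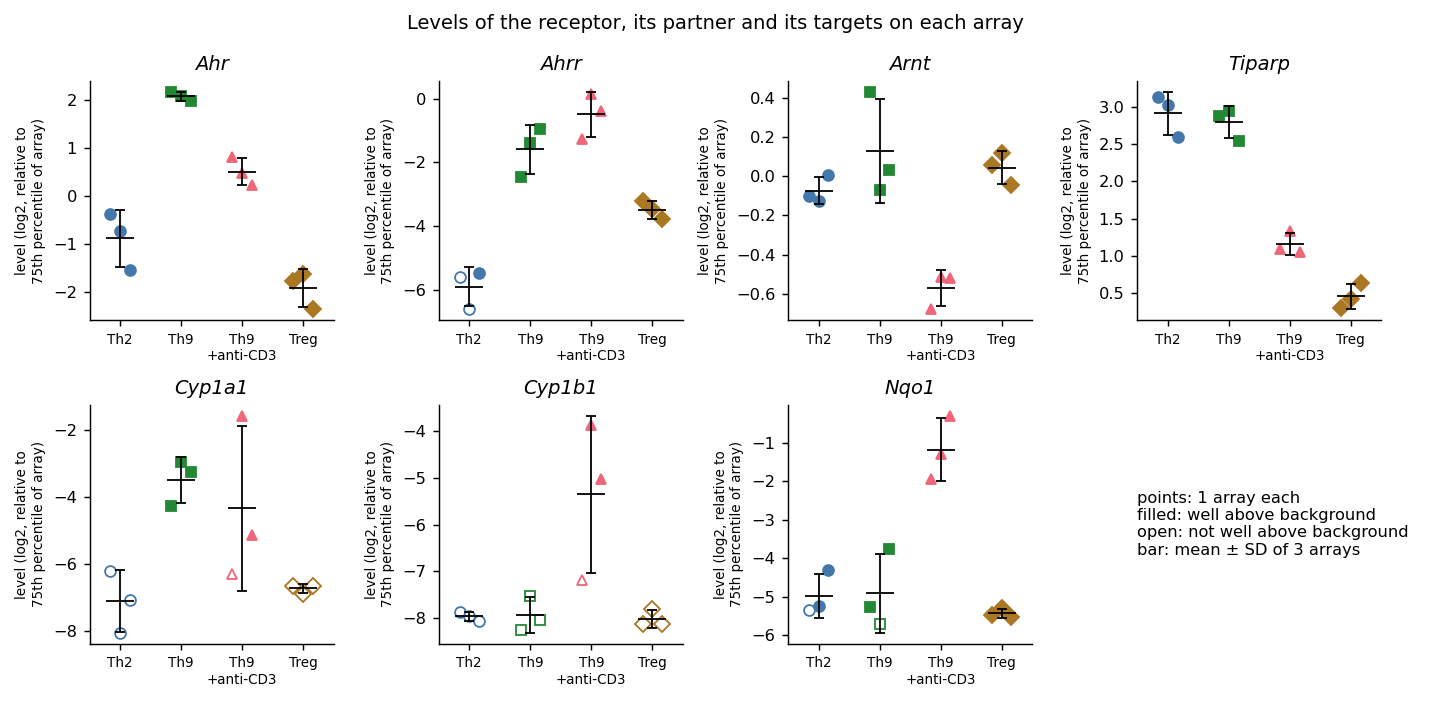
Levels of the 7 genes (log2 signal relative to the 75th percentile of the array) on each of the 12 arrays, with the mean ± SD of 3 arrays per group. Open points were not well above background. Ahr is highest in Th9 (1.99 to 2.17), Tiparp is alike in Th2 and Th9, and Nqo1 is high only on the 3 stimulated arrays (-1.93 to -0.29).

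Among the other 6 genes, 5 passed the filter of 3 arrays well above background and were tested; Cyp1b1, above background on 2 arrays, was not. The 4 comparisons share groups and so share arrays. Between Th9 and Th2, 2 of the 5 tested genes were called at a limma adjusted p under 0.05, both higher in Th9, where 17% of all genes were called (7.76% higher, 9.25% lower). They were Ahrr and Cyp1a1, and Cyp1a1 passed the filter only through the Th9 cultures where it was high, so nothing is read from this count. Between Th9 and Treg, 3 were higher, Cyp1a1 again among them, and 0 lower, where 64% of all genes were called (28.8% higher, 35.3% lower). Between Th2 and Treg, 1 was higher and 1 lower, against 62.7% of all genes (29.3% higher, 33.5% lower). After stimulation of Th9 cells, 1 rose and 2 fell, against 63.7% of all genes (33.2% higher, 30.5% lower). In the last 3 comparisons the share of tested members called was no higher than the share of all genes called.

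Arnt, the obligate dimer partner of AHR and of the hypoxia factors, is read by 4 probes along chr3, and the probes disagree on Treg cells. In mm8 they lie at chr3:95570545-95570604 (A_52_P84015), chr3:95576047-95576473 (A_52_P577150, its 60 bases split over 427 bases of genome), chr3:95580915-95580975 (A_51_P494196) and chr3:95582414-95582473 (A_52_P324866). The last, with the highest mean, represented the gene. Their first 30 bases are shown because the answer depends on which probe is read.
A_52_P84015: atagtctcaacttcctttcaagactatcac
A_52_P577150: cagagaatttcaggaatagtggtcttaccc
A_51_P494196: ctttccacccttgacttgctgaagaaacgt
A_52_P324866: aataaccgacttgtttttaactgtgatctg
With A_52_P324866, the arrays read -0.10, -0.13 and 0.0047 in Th2, 0.43, -0.07 and 0.03 in Th9, and 0.06, 0.12 and -0.04 in Treg. The 3 unstimulated cultures overlapped. Th9 minus Th2 was 0.20 ± 0.13 (limma SE, adjusted p = 0.317) and Th9 minus Treg 0.09 ± 0.13 (adjusted p = 0.588). Stimulated Th9 arrays read -0.68, -0.51 and -0.52, below every unstimulated Th9 array, and Arnt fell by 0.70 ± 0.13 (adjusted p = 0.00071).

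The neighbouring probe A_51_P494196 gave another picture of Treg cells. It read -2.50, -2.35 and -2.10 there against 0.47, -0.11 and -0.13 in Th9, a difference of 2.39 ± 0.18 (adjusted p over all probes = 9.7e-07). Probe A_52_P577150, the only Arnt probe the design assigns to a RefSeq transcript, likewise read 1.89 ± 0.18 higher in Th9 than in Treg (adjusted p over all probes = 6.9e-06). Against Treg, Th2 cells were 2.16 and 1.42 higher by these probes. By A_52_P84015, Th9 minus Treg was -0.68 ± 0.30 (adjusted p over all probes = 0.0683), the opposite sign. All 4 probes read lower after stimulation, by 0.61 to 1.26, and 3 of them passed the test. The mm8 annotation of exons was not used here, so which transcript ends these probes read is not analysed.

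**Figure D2:**
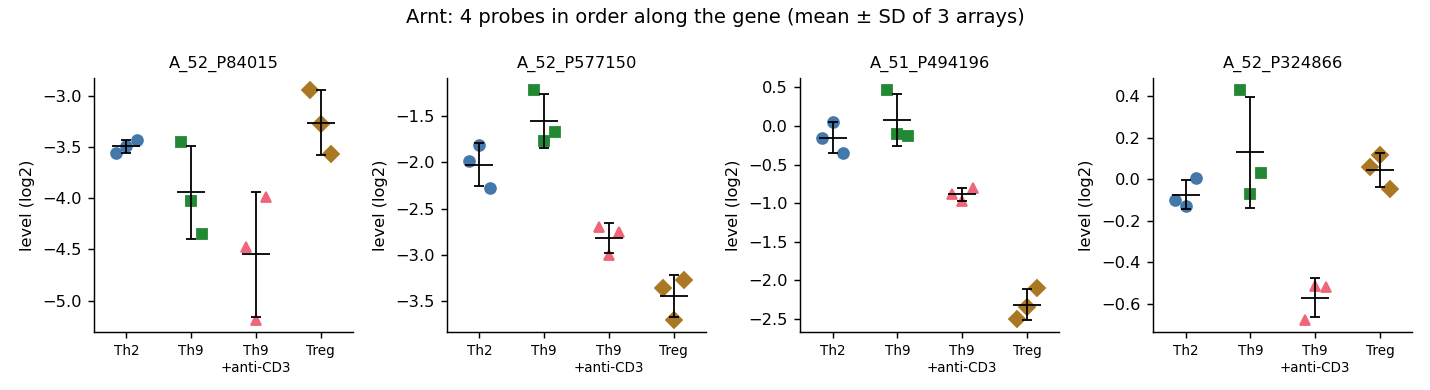
Levels of the 4 Arnt probes (log2) in order along the gene, per array with mean ± SD of 3 arrays. The middle probes are lowest in Treg (means -3.44 and -2.31), while the outer probes are not, and the stimulated Th9 mean lies below the unstimulated Th9 mean in every panel.

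Ahrr, which competes with AHR for ARNT and is itself an AHR target, did not follow the order of the receptor. Th9 arrays read -2.45, -1.38 and -0.94, Treg arrays -3.20, -3.47 and -3.79, and Th2 arrays -5.61, -6.60 and -5.46. Th2 was the lowest group and 2 of its 3 arrays were not well above background, although Ahr itself was lower in Treg than in Th2. Ahrr was 4.30 ± 0.45 higher in Th9 than in Th2 (limma SE, adjusted p = 0.00016) and 1.90 ± 0.45 higher in Th9 than in Treg (adjusted p = 0.0038). It was lower in Th2 than in Treg (difference -2.40 ± 0.45, adjusted p = 0.00084). The difference between Th9 and Th2 was 1.75 after normexp background correction, which starts from the mean spot signal and its local background and adds an offset of 50. An added offset compresses dim probes, and its part here was not tested alone. Under that correction Th2 minus Treg was -0.66 (adjusted p = 0.0665) and no longer called.

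After anti-CD3, Ahrr read -1.25, 0.15 and -0.38. The lowest of these arrays lay within the range of the unstimulated Th9 arrays. The difference of 1.10 ± 0.45 had an adjusted p of 0.0539 and was not called, beside a difference of -1.58 for Ahr on the same arrays. This call depended on the setting. The difference passed after normexp correction (0.91, adjusted p = 0.0153), after median centring (1.18, adjusted p = 0.0474), without Th9 array 3 (1.42, adjusted p = 0.0257) and without stimulated array 1 (1.48, adjusted p = 0.0183), and its adjusted p ran from 0.0153 to 0.212 over all settings tried.

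Tiparp, a mono-ADP-ribosyltransferase that AHR induces and that dampens it, was equally high in Th2 and Th9 cells within the spread of the arrays. Th2 arrays read 3.13, 3.02 and 2.59 and Th9 arrays 2.88, 2.95 and 2.55, and the groups overlapped. Th9 minus Th2 was -0.12 ± 0.17 (limma SE, adjusted p = 0.670), beside 2.97 for Ahr between the same arrays. Treg arrays read 0.30, 0.42 and 0.64, below every Th2 and Th9 array. Tiparp was 2.34 ± 0.17 higher in Th9 than in Treg (adjusted p = 7.8e-07) and 2.46 ± 0.17 higher in Th2 than in Treg (adjusted p = 5.8e-07).

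After stimulation Tiparp fell. Stimulated arrays read 1.08, 1.33 and 1.05, all below the Th9 arrays, a difference of -1.64 ± 0.17 (limma adjusted p = 8.9e-06) beside -1.58 for Ahr. These 3 calls of Tiparp held in all 17 settings with a test.

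Cyp1a1, the mono-oxygenase most used as a readout of AHR activity, was detected in Th9 cells only among the unstimulated cultures. The Th9 arrays read -4.28, -2.96 and -3.25 and were all well above background. No Th2 array (-6.21, -8.06, -7.08) and no Treg array (-6.66, -6.90, -6.65) was well above background, so the gene entered the test only through the Th9 cultures where it was high, and folds are bounds: the mean of the Th9 arrays is set against the detection limit of each dim array, or the probe's signal where that was higher. Against Th2 the excess in Th9 was at least 5.18-fold (limma adjusted p = 0.0288). Against Treg it was at least 5.63-fold (adjusted p = 0.0134). Because of that entry through the bright group, both p-values are given as a description and support nothing. The Th9 to Th2 call was lost after normexp correction (0.73, adjusted p = 0.194) and without Th2 array 2 (adjusted p = 0.0976), Th2 array 3 (0.0711), Th9 array 2 (0.0934) or Th9 array 3 (0.0684). The Th9 to Treg call was lost after normexp correction (0.71, adjusted p = 0.115).

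The stimulated arrays spread widely for Cyp1a1, at -6.29, -1.57 and -5.14. Array 2 was above every Th9 array and arrays 1 and 3 below every one, with array 1 not above background. The difference of -0.84 ± 0.97 from unstimulated Th9 was not called (limma adjusted p = 0.476). Without array 2 it was -2.22 and called (adjusted p = 0.00605).

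Cyp1b1, a related mono-oxygenase, was seen only after stimulation. Probe A_51_P255456 read -7.19, -3.86 and -5.02 on the stimulated arrays, of which the last 2 were well above background, and between -8.26 and -7.52 on the 9 others, of which 0 were. Stimulated Th9 cells were at least 1.68-fold higher than unstimulated ones by the same bound. The gene was not tested with the filter in place. Without a filter the difference was 2.58 ± 0.64 (limma adjusted p = 0.00704). The unstimulated values in that fit are below background, and the gene is seen only through 2 bright stimulated arrays. The difference is therefore not a measured fold, and this p-value supports nothing. Its second probe was above background on 0 of 12 arrays. For both Cyp1 genes stimulated array 2 was the highest and array 1 the lowest of the 3.

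Nqo1, a quinone reductase that answers to AHR and to the oxidative stress factor NRF2, stayed low where the receptor was highest and rose after stimulation. Th9 arrays read -5.28, -5.72 and -3.76, Th2 arrays -5.36, -5.25 and -4.32, and Treg arrays -5.48, -5.31 and -5.53. These groups overlapped, and Th9 minus Th2 was 0.06 ± 0.52 (limma SE, adjusted p = 0.955). Stimulated arrays read -1.93, -1.31 and -0.29, above all 9 others. The rise was 3.74 ± 0.52 (13.4-fold, adjusted p = 8.4e-05), beside a difference of -1.58 for Ahr. It was 2.03 after normexp correction and was called in all 17 settings with a test.

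**Figure D3:**
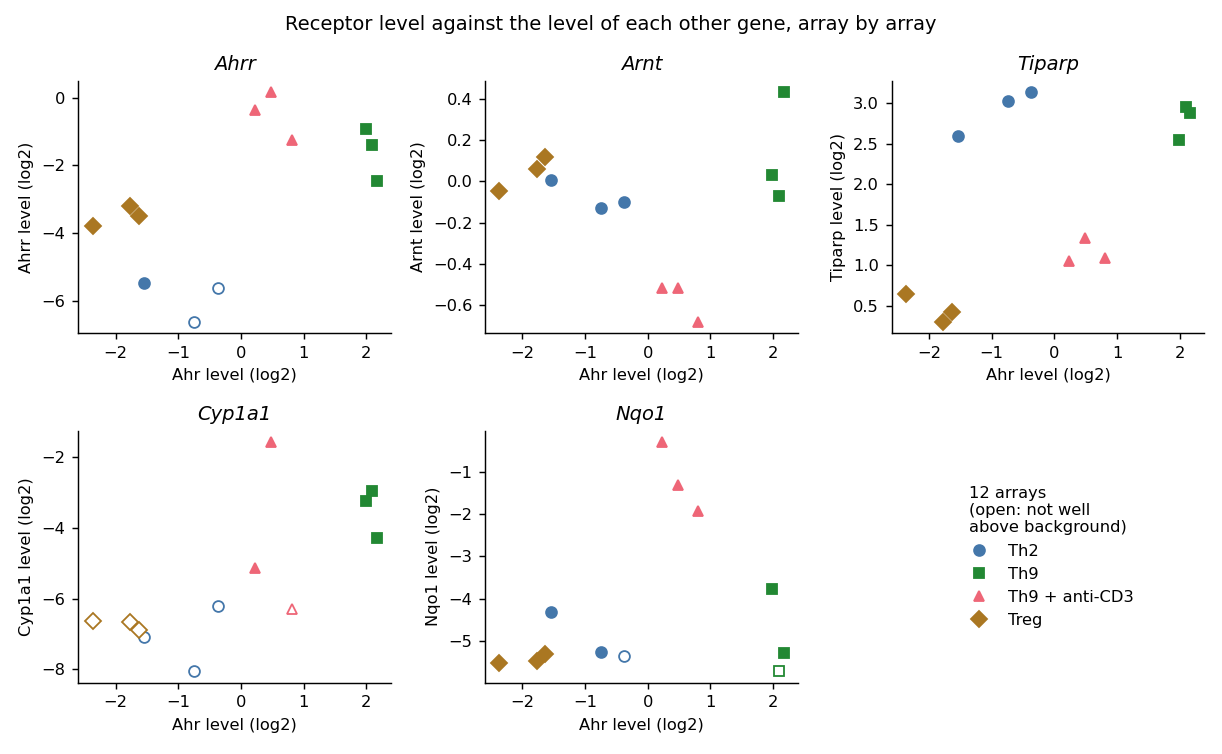
Ahr level against the level of 5 other genes (log2, relative to the 75th percentile of the array), each point being 1 of 12 arrays. Th9 arrays lie at the right of each panel; Nqo1 is high on the stimulated arrays, where Ahr is 0.23 to 0.81, and low on the Th9 arrays, where Ahr is 1.99 to 2.17.

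Setting receptor and targets side by side, the step from Th2 to Th9 cells came with 2.97 more Ahr, more Ahrr (4.30, or 1.75 after normexp correction, with 2 of 3 Th2 arrays not above background) and Cyp1a1 above background only in Th9, but with Tiparp and Nqo1 differing by -0.12 and 0.06. The step from Treg to Th2 cells came with 1.04 more Ahr and 2.46 more Tiparp, but less Ahrr (difference -2.40), and Cyp1a1 below background in both. The step from resting to stimulated Th9 cells came with less Ahr (difference -1.58), a fall of Tiparp and Arnt and a rise of Nqo1. The order of the group means of Ahr was not that of Ahrr, Tiparp or Nqo1; for Cyp1a1 no order is given, since Th2 and Treg were below background and the stimulated arrays spread over and under the Th9 arrays.

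**Figure D4:**
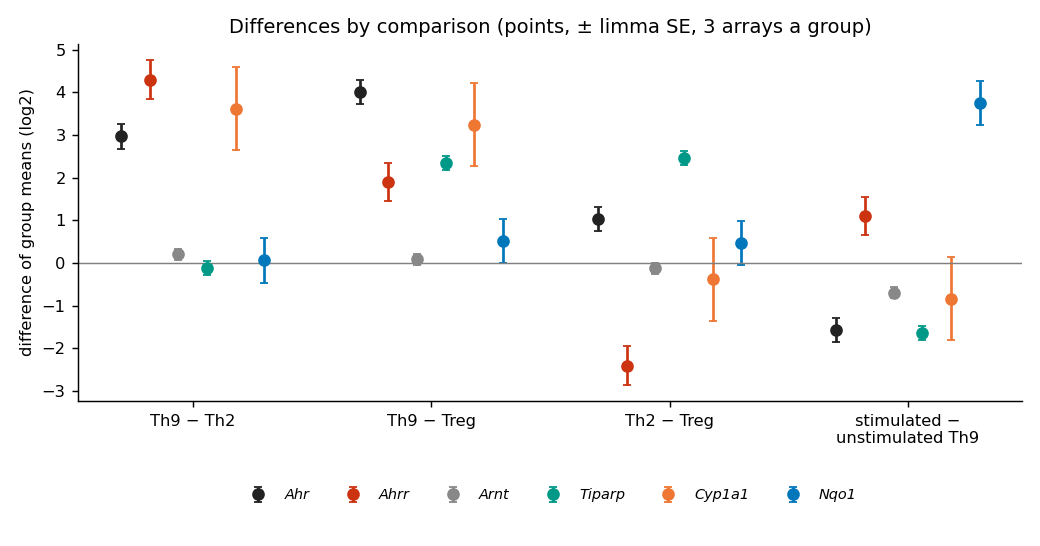
Differences of group means (log2, points, with limma SE) for Ahr and the 5 tested genes in the 4 comparisons. Ahrr stands at 4.30 for Th9 minus Th2 and at -2.40 for Th2 minus Treg, and Nqo1 at 3.74 after stimulation; Cyp1a1 values in Th2 and Treg are below background, so its first 3 differences are not measured folds.

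The arrays were hybridised on 3 slides, and no slide held Th9 cells together with unstimulated cells of either other kind. Slide 1 held the 3 Th2 arrays and 1 Treg array, slide 2 the other 2 Treg arrays and 2 stimulated arrays, and slide 3 the third stimulated array and the 3 Th9 arrays. With slide as a block, Ahr was 3.61 higher in Th9 than in Th2 and 4.50 higher than in Treg. Ahrr was then 4.56 higher than in Th2 (limma adjusted p = 0.0997) and 1.87 higher than in Treg (adjusted p = 0.144), neither called. Cyp1a1 lost both its calls as well, at differences of 4.94 ± 2.45 (SE, adjusted p = 0.430) and 4.48 ± 1.96 (adjusted p = 0.105). These block differences link Th9 to Th2 and Treg only through the 1 stimulated array on slide 3. Their size therefore says nothing about a part of slide, which was not tested. Tiparp kept its call against Treg (2.42, adjusted p = 0.00081).

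Where a slide did hold both groups, the values pointed the same way as in the main fit, but each rests on 1 array of a group. On slide 3, the 1 stimulated array minus the 3 Th9 arrays was -1.85 for Ahr, -1.74 for Tiparp, -0.65 for Arnt, 1.21 for Ahrr and 4.62 for Nqo1. On slide 1, the 3 Th2 arrays minus the 1 Treg array was 2.61 for Tiparp and -2.69 for Ahrr. For these 2 comparisons the fit with slide as a block gave the same values, so it adds no second line of support.

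The receptor's chaperones and coactivators were read from a list of 9 genes, chosen like the other lists below with earlier results of these arrays known. Between Th9 and Th2, 2 were higher and 1 lower, where 17% of all genes were called, with a median difference of -0.05 beside -0.03 for all genes. Hsp90aa1, an HSP90 gene, was lower in Th9 than in Th2 (difference -0.69 ± 0.14, limma adjusted p = 0.0071), a call lost with slide as a block (-0.15, adjusted p = 0.906). After stimulation 2 of the 9 rose and 4 fell, a share close to the 63.7% of all genes called. Ptges3, which encodes p23, rose by 1.59 ± 0.10 (adjusted p = 3.4e-07) and Hsp90aa1 by 1.55 ± 0.14 (adjusted p = 3e-06).

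Genes linked to AHR in T cells were read from a list of 14, of which 12 were tested. Between Th9 and Th2, 3 were higher and 2 lower, where 17% of all genes were called. Against Treg, 8 were higher in Th9 and 1 lower, where 28.8% of all genes were higher and 35.3% lower. Gpr15, a homing receptor of T cells, read -2.81 to -0.95 in Th9 and was not above background in Th2, at least 14.5-fold higher (limma adjusted p = 9.1e-06). Slc7a5, an amino acid transporter that carries tryptophan derivatives, was lower in Th9 than in Th2 (difference -1.35 ± 0.34, adjusted p = 0.0219) and 2.52 ± 0.34 higher than in Treg (adjusted p = 8.1e-05). The former was lost in 5 of 17 settings, with slide as a block among them (-0.29, adjusted p = 0.940) and without Th2 array 3, Th9 array 1 or Th9 array 2.

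After stimulation 6 of these 12 genes were higher and 2 lower, a share close to the 63.7% of all genes called, with a median difference of 0.74 beside 0.02 for all genes. Il22, a cytokine known to need AHR in Th17 cells, was above background on no array of the 3 unstimulated groups and on all 3 stimulated arrays, at least 3.03-fold higher than in unstimulated Th9 (limma adjusted p = 1.7e-06). It passed the filter only through those stimulated arrays, so this p-value supports nothing and the gene could only count among the 6. Il21 rose by 5.68 ± 0.26 (adjusted p = 8e-08). Entpd1, the ectonucleotidase CD39, fell by 4.52 ± 0.20 (adjusted p = 7.7e-08).

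Of 10 enzymes that make or consume tryptophan-derived ligands, 9 were tested. Between Th9 and Th2, 2 were higher and 0 lower, where 17% of all genes were called. Kynu, kynureninase, exceeded the Th2 cultures, where it was not above background, at least 12.3-fold in Th9 (limma adjusted p = 3.4e-05). Kmo, kynurenine mono-oxygenase, was at least 1.61-fold higher (adjusted p = 0.0175), with Th9 arrays at -5.58 to -4.63, near the detection limit. This call was lost in 6 of 17 settings. After normexp correction the difference was 0.02 (limma adjusted p = 0.906), and with slide as a block it was 1.11 (adjusted p = 0.647). Leaving out Th2 array 2, Th2 array 3 or Th9 array 2 also lost it. Il4i1, an amino acid oxidase that yields AHR ligands, was 1.27 ± 0.50 higher in Th9 than in Th2 without passing (adjusted p = 0.110). It was lower in Th2 than in Treg (difference -2.03 ± 0.50, adjusted p = 0.0047). After stimulation 1 of the 9 rose and 5 fell, where 63.7% of all genes were called, among them Ddc, which decarboxylates aromatic amino acids (difference -1.75 ± 0.23, adjusted p = 5.2e-05).

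The rise of Nqo1 after stimulation was set beside 13 other genes of the NRF2 antioxidant battery. Of these, 8 rose and 0 fell, with a median difference of 0.85 beside 0.02 for all genes, of which 33.2% rose. The share called in either direction, 8 of 13, was close to the 63.7% of all genes called. Srxn1, sulfiredoxin, read -1.64 to -0.60 in Th9 and 2.47 to 2.73 after stimulation, a rise of 3.64 ± 0.25 (limma adjusted p = 5.6e-07). Txnrd1, thioredoxin reductase, rose by 3.40 ± 0.16 (adjusted p = 9.6e-08) and Prdx1, a peroxiredoxin, by 2.23 ± 0.15 (adjusted p = 4.1e-07). Nfe2l2, the gene of NRF2 itself, differed by 0.03 ± 0.16 (adjusted p = 0.903). Keap1, which holds NRF2 back, was 0.29 ± 0.10 higher (adjusted p = 0.0317), but -0.0096 after quantile normalization and not called in 7 of 17 settings, leaving out Th9 array 1, Th9 array 3 or stimulated array 3 among them. Between Th9 and Th2, where 7.76% of all genes were higher and 9.25% lower, 0 of the 13 were higher and 4 lower, Srxn1 (-0.98 ± 0.25, adjusted p = 0.0241), Txnrd1 (-0.80 ± 0.16, adjusted p = 0.0081), Hmox1 (-0.67 ± 0.20, adjusted p = 0.042) and Gsr. With slide as a block the first 3 of these were not called, at differences of -1.05, -1.05 and -1.11. Th9 and Th2 share no slide, so the size of these values says nothing about a part of slide. Srxn1 and Hmox1 each lost the call in 7 of 17 settings, leaving out any 1 array other than Th9 array 3 among them.

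**Figure D5:**
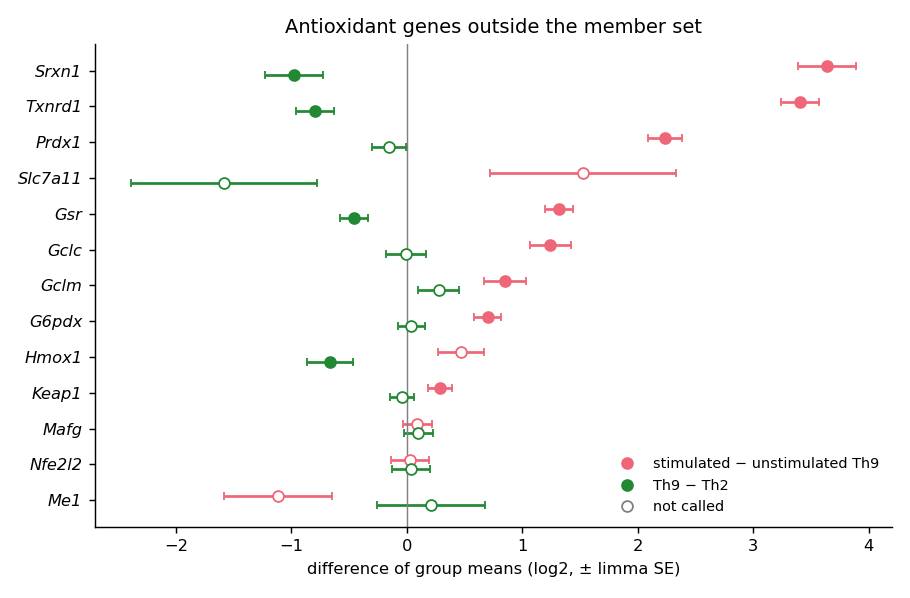
Differences (log2, ± limma SE) of 13 NRF2 battery genes other than Nqo1 for stimulated minus unstimulated Th9 and for Th9 minus Th2; open points were not called. Srxn1 (3.64) and Txnrd1 (3.40) rise most after stimulation, and both are lower in Th9 than in Th2.

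Of 10 other xenobiotic enzymes listed, 8 were on the array and 4 were tested; after stimulation 0 rose and 3 fell, where 63.7% of all genes were called. Cyp2s1, a cytochrome P450 that AHR can induce, read 4.74 to 5.05 in Th9 and -1.43 to 0.93 on the stimulated arrays, a difference of -5.22 ± 0.59 (limma adjusted p = 1.9e-05). Between Th9 and Th2 its groups read alike, with Th2 at 4.36 to 5.09. Gstm1, a glutathione transferase, was 3.54 ± 0.25 higher in Th9 than in Treg (adjusted p = 7.3e-07) and Xdh, xanthine dehydrogenase, was lower there (difference -2.95 ± 0.31, adjusted p = 1.4e-05). Of 8 relatives in the bHLH-PAS family, 6 were tested; 0 were called between Th9 and Th2, where 17% of all genes were, and after stimulation 1 rose and 3 fell, where 63.7% of all genes were called. Epas1, which encodes HIF-2α, was 4.80 ± 0.52 higher in Th9 than in Treg (adjusted p = 1.6e-05) and fell by 2.33 ± 0.52 after stimulation (adjusted p = 0.0024).

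Profiles like those of the members were sought among 13895 named genes by the root mean square difference over the 12 arrays, each gene centred on its own mean. Closest to Ahr were Acvr2a (0.316), Src (0.360), Tctex1d1 (0.393), Rnf217 (0.442) and Spsb1 (0.471), in log2 units. Acvr2a, an activin receptor, averaged -1.47 in Th9, -2.58 after stimulation, -3.87 in Th2 and -4.93 in Treg, the group order of Ahr. Closest to Ahrr were Cldnd1 (0.649), Gpr15 (0.846), 8030451A03Rik (0.940), Kynu (0.944) and Csf2rb2 (0.967). All of these but Csf2rb2 shared with Ahrr the order Th2, Treg, Th9, stimulated Th9 from low to high. The genes were picked for closeness to a member's profile on these same arrays. Group orders shared with a member, here and below, follow from that choice and are no support for a link.

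For Tiparp the closest were Zfp516 (0.192), Sh3d21 (0.195) and Tubb5 (0.203), a β-tubulin, all with close means in Th2 and Th9 and lower after stimulation and in Treg. For Nqo1 they were Lrfn4 (0.397), Spint1 (0.496) and P2rx5 (0.587), each highest in stimulated Th9. For Arnt, 2610306M01Rik (0.103) and Zfp110 (0.117) led. Cyp1a1 had no close neighbour, with Prss12 nearest at 1.04.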

How the data were processed

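Per the file headers, the authors' scanner output holds spot intensity on a linear scale from Agilent Feature Extraction 10.5.1.1, background-subtracted, with no normalization between arrays. The deposited series table holds log2 values of the same arrays and served as an alternative. Log2 of the processed signal minus each array's 75th percentile was computed here. Control and outlier spots were dropped, spots of a probe averaged, probes kept when well above background on at least 3 of 12 arrays, and the probe of highest mean taken for each gene, leaving 17925 genes. All 12 arrays were fitted with limma 3.58.1 in R 4.3.3 (lmFit, 1 mean per group, eBayes; checked on simulated data), with Benjamini-Hochberg adjustment over all genes (over all probes where stated) and calls at adjusted p under 0.05. Every probe of the 7 genes is described; named list genes are at most 3 called per list and comparison with the largest difference, some of them given here, plus Nfe2l2, Keap1, Il22, Il4i1 and Slc7a5; Gsr was named after its values were seen. Some genes the rule takes are not reported here. Members, lists and tests were chosen with earlier results of these data known, so counts over them are not independent evidence. Arrays of the same number deviated together between Th2 and Th9 (correlations 0.20, 0.18 and 0.41), where the numbers were taken to pair the arrays; in the other comparisons not every pair reached 0.1 (lowest over all 18 pairs -0.02).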

Additional observations from a re-analysis of the deposited data

How the results depend on the processing

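Of 432 recomputed values of the member genes, 389 kept their direction and side of the threshold or, for untested values, moved by less than the spread between arrays; 5 others, all of Ahr, kept their direction and moved further. The count of called members between Th9 and Th2, 2, was 1 after normexp correction, 0 with slide as a fixed block and 1 to 2 when leaving out each array. Against Treg, the count for Th9, 3, was 1 with slide as a block, and the count for Th2, 2, was 1 after normexp correction. Called genes over all pathway lists between Th9 and Th2, 15, were 6 to 14 when leaving out each array, with 9 without Th2 array 1, 7 without Th2 array 2 and 6 without Th9 array 2. Slide as a block left 317 of 3049 genes called between Th9 and Th2 and 6685 of 11474 between Th9 and Treg; as a random block its consensus correlation was -0.0027.

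Differences that were not called changed sign in places. For Nqo1, Th9 minus Th2 was -0.019 after normexp correction, -1.33 with slide as a block and -0.52 to 0.46 when leaving out each array. Nqo1 in Th9 minus Treg was -0.0026 after normexp correction, -0.82 with slide as a block and -0.058 to 0.92 when leaving out each array. Leaving out each array also gave -0.28 to 0.0011 for Tiparp in Th9 minus Th2, -0.066 to 0.19 for Arnt in Th9 minus Treg, -0.84 to 0.087 for Cyp1a1 in Th2 minus Treg and -2.22 to 0.14 for Cyp1a1 after stimulation, which was 0.038 with normexp correction. With probe A_52_P84015, Arnt in Th9 minus Treg was -0.68 and in Th9 minus Th2 -0.45. Arnt in Th2 minus Treg was 0.81 as the mean of its probes, 2.16 with A_51_P494196 and 1.42 with A_52_P577150; these probes were tried after seeing the data. Keap1 after stimulation was -0.0096 with quantile normalization and -0.0087 in the deposited table. The cause of these changes was not tested. The normexp setting differed from the main fit in its starting signal and background method as well as in its offset, and no run varied the offset alone. The Arnt values differed by probe.

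The numbers of the arrays paired Th2 with Th9 by their deviations and did not pair the groups of the other comparisons, although 11 of 12 arrays correlated best with their own number. With a replicate block, Ahr was 2.97 higher in Th9 than in Th2, Ahrr was 4.30 higher (adjusted p = 0.00065), and no member or list gene named for this comparison changed its call; all genes called were 3085 between Th9 and Th2, against 3049. Median centring moved the median of all genes by 0.11 in Th2 minus Treg, where 53.1% of called genes were then higher. Of 73 calls of list genes, tried after seeing the data, 48 held in all settings run. These were unevenly spread: between Th9 and Th2 only the calls of Gpr15 and Kynu held in all settings, and every other list call tried for that comparison was lost in at least 1. Depth of signal limits Cyp1a1, Cyp1b1, Nqo1 and Ahrr, which lay near background in some groups.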
